A study of Mus musculus with 7 samples.

Results

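The genes of collagen IV and of the proteins that hold it in the basement membrane were followed across 7 libraries of mouse embryonic stem (ES) cells and their endoderm-directed derivatives. The set holds 10 genes of the 43629 gene identifiers in the count table, chosen by name: the 6 collagen IV chains Col4a1 to Col4a6, the nidogens Nid1 and Nid2, perlecan (Hspg2) and Sparc. All 10 identifiers were found. Poly(A) RNA was sequenced from E14 cells, an ES line of 129/Ola background, in 3 groups. The KO ESC group was 3 undifferentiated Ago2 knockout libraries grown in serum and LIF, 1 of line C4 and 2 of line 5-3 (5-3_1 and 5-3_2). The WT XEN group was 2 libraries (A and B) of wild-type E14 cells after 5 days with activin A at 10 ng/mL and all-trans retinoic acid at 0.1 µM, a treatment meant to direct cells towards extraembryonic endoderm (XEN). The KO XEN group was 2 Ago2 knockout libraries, 1 of line C4 and 1 of line 5-3, after the same 5 days. Ago2 encodes the Argonaute protein that carries small RNAs to their target messages. Every ES library here was a knockout, so in WT XEN against KO ESC the genotype and the differentiation cannot be told apart. The knockout was seen in 2 lines only, and the labels do not say whether the 2 libraries of line 5-3 or the 2 wild-type libraries came from separate cultures, so p-values measure the spread between these libraries, which may be partly technical.

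Basement membranes are thin extracellular sheets built from a laminin network and a collagen IV network. Collagen IV chains fold in the endoplasmic reticulum into trimers before they are secreted: the Col4a1 and Col4a2 products form the trimer of nearly all basement membranes, the Col4a3, Col4a4 and Col4a5 products form the trimer known from the kidney glomerulus, and Col4a5 with Col4a6 forms a trimer known from smooth muscle and some epithelia. The chain genes lie as head-to-head pairs that are read in opposite directions. Nidogens bridge laminin and collagen IV, perlecan is a heparan sulfate proteoglycan of the same sheet, and SPARC is a secreted glycoprotein that binds collagen. Parietal endoderm, which lays down Reichert's membrane in the rodent embryo, is known as a very rich source of collagen IV, laminin and SPARC.

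The start regions of both chain pairs that moved in opposite directions below are shown first, because the genes of each pair start close together and moved together. In the GENCODE M21 annotation of GRCm38, the build the submitters name as mm10, Col4a1 (chr8:11198423-11312826, minus strand) and Col4a2 (chr8:11312805-11449287, plus strand) overlap by 22 bases at their starts. The starts of Col4a3 (chr1:82586921-82722059, plus strand) and Col4a4 (chr1:82448423-82586849, minus strand) lie 72 bases apart, and those of Col4a5 (chrX:141475385-141689234, plus strand) and Col4a6 (chrX:141165403-141474076, minus strand) lie 1309 bases apart. RefSeq promoter windows of 300 bases (250 before to 50 after the start site, GRCm38.p6, printed on the gene's own strand) were matched for 8 of the 10 genes. Capitals mark matches, on either strand, to the CCAAT box (CCAAT), the GC box (GGGCGG) and the TATA box (TATAAA). The 4 windows lie at chr8:11312777-11313076 (Col4a1), chr8:11312555-11312854 (Col4a2), chrX:141475169-141475468 (Col4a5) and chrX:141474027-141474326 (Col4a6).
Col4a1: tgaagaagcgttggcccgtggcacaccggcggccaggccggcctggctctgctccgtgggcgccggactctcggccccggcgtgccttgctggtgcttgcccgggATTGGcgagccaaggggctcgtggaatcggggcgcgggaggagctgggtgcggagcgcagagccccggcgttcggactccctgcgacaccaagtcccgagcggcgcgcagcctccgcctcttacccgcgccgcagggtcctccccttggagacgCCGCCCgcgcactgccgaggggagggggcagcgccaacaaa
Col4a2: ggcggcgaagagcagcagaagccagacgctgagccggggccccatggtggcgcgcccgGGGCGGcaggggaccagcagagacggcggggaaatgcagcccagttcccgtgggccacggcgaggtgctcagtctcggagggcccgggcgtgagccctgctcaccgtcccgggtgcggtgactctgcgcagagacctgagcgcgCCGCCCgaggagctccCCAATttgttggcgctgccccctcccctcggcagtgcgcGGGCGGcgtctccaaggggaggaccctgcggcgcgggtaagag
Col4a5: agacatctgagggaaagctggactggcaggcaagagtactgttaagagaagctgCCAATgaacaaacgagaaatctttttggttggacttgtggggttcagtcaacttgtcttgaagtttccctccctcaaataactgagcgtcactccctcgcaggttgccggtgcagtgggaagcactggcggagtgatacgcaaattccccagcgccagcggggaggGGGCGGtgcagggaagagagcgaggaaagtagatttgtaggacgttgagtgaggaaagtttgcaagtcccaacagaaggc
Col4a6: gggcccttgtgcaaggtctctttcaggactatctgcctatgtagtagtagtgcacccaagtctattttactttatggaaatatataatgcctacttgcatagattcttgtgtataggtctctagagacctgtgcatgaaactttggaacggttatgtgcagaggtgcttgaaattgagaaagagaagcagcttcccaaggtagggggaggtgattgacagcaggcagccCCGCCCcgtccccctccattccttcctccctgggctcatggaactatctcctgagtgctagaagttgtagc
The Col4a1 and Col4a2 windows were 74.0% and 73.7% G and C, against 52.7% for Col4a5 and 48.3% for Col4a6. A CCAAT match was present in the Col4a1, Col4a2 and Col4a5 windows (1 each) and not in that of Col4a6, against 37.4% of all 32851 RefSeq promoter windows of this length. A GC box was present in all 4 windows (3 in Col4a2 and 1 in each of the others), against 35.7% of all windows. The windows of Col4a1 and Col4a2 overlap, and the Col4a1 box is the same bases as the Col4a2 box 7 to 12 bases after its start. Of the matched windows not shown, those of Nid1 and Hspg2 held a GC box and those of Col4a4 and Sparc did not. None of the 4 held TATAAA, which 13.6% of all windows held. Matches describe letters in these windows and do not show that a factor binds there.

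Since Ago2 works through microRNAs, the members' 3′ UTRs were also read for the seed match of the miR-29 family, whose known targets include many collagens. The mature miR-29 sequences are given from RefSeq with the seed (bases 2 to 8) in capitals, and all 3 share it.
mmu-miR-29a-3p: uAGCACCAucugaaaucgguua
mmu-miR-29b-3p: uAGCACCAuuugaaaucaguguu
mmu-miR-29c-3p: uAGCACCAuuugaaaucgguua
The match to this seed, TGGTGCT, occurred in the annotated 3′ UTR of all 6 collagen IV chains, with 13 sites in all: 1 in Col4a1, 2 in Col4a2, 4 in Col4a3, 2 in Col4a4, 3 in Col4a5 and 1 in Col4a6. It occurred in none of Nid1, Nid2, Hspg2 and Sparc. Among 21027 genes with an annotated 3′ UTR, 12.2% held it, at a median UTR length of 848 bases against 971 to 4708 bases for the 6 chains. One site of each of the 4 chains whose levels are compared most below is shown, with the match in capitals, read from GRCm38 on the gene's strand at chr8:11199762-11199768, chr8:11448359-11448365, chrX:141688253-141688259 and chrX:141166515-141166521.
Col4a1: ccaccgtcacaacaTGGTGCTactccccc
Col4a2: tgggaaggccacgtTGGTGCTtatccttc
Col4a5: actgctcccaccaaTGGTGCTaatatcct
Col4a6: tgtttccatccatcTGGTGCTaacattcc
The sites of Col4a1, Col4a5 and Col4a6 were followed by an A, which makes a longer match, and those of Col4a2, Col4a3 and Col4a4 were not. In KO XEN against WT XEN, Col4a1 and Col4a2 fell and Col4a5 and Col4a6 rose. Col4a3 and Col4a4 did not pass the test (values below). MicroRNA levels were not analysed here, and a part of miR-29 in the levels of these chains was not tested.

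Library depth ran from 13941826 counts (KO XEN C4) to 48650113 (KO ESC 5-3_2), and the other 5 libraries held 33389566 to 40327397. Ago2 itself stood at 94.4, 9.37 and 9.65 CPM (counts scaled to a library of 1000000, on library sizes adjusted by TMM) in KO ESC C4, 5-3_1 and 5-3_2, at 394 and 432 CPM in WT XEN A and B, and at 122 and 9.94 CPM in KO XEN C4 and 5-3. The C4 libraries thus kept more Ago2 reads than those of line 5-3. The labels do not place the deletion and counts per gene do not show which exons were read, so these reads cannot check the C4 label, and results are also given without both C4 libraries where that changes a call. The 10 members together took 0.120% to 0.122% of all counts in the ES libraries, 2.79% and 3.81% in WT XEN A and B, and 1.20% in both KO XEN libraries. In bulk RNA, fewer cells of a type and less RNA per cell cannot be told apart.

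Markers of cell types were read beside the members. Over all tested genes, 22.3% were called higher and 23.9% lower in KO XEN against WT XEN. In KO XEN against KO ESC, 34.8% were called higher and 34.3% lower. Summed over 11 visceral endoderm markers, levels were 175 to 234 CPM in KO ESC, 11961 to 13631 CPM in WT XEN and 58.7 to 182 CPM in KO XEN, so that the KO XEN libraries did not stand above the ES libraries on this list, although 5 of 11 were called higher and 2 lower against KO ESC. Of these 5, Afp, Ttr and Apoa1 reached the level needed for testing only in XEN libraries. A lower call was hardly possible for them. Against WT XEN, 11 of 11 visceral endoderm markers were lower in KO XEN. Summed over 11 parietal endoderm markers, levels were 276 to 318, 10437 to 18653 and 2952 to 3181 CPM in KO ESC, WT XEN and KO XEN. Vim and Lama1 made most of these sums. Vim alone stood at 2423 and 2202 CPM in KO XEN C4 and 5-3, against 90.5 to 225 CPM in WT XEN, and Lama1 at 9071 and 16467 CPM in WT XEN A and B, against 116 and 300.04 CPM in KO XEN C4 and 5-3. The other 9 summed to 4.27 to 16.7 CPM in KO ESC, 1141 to 2096 in WT XEN and 413 to 679 in KO XEN. Over the list there was 1 of 11 higher (Vim), 6 lower and 4 not called in KO XEN against WT XEN. None of the 22 endoderm markers was at 0 in any group. Summed over 12 fibroblast and smooth muscle markers, levels were 38.7 to 42.6, 855 to 1937 and 11224 to 13660 CPM in that order, with 8 of 12 higher and 2 lower in KO XEN against WT XEN (Lum was at 0 in KO XEN, and Col3a1, Postn and Lum were at 0 in KO ESC). Neural markers summed to 505 to 543, 61.0 to 92.9 and 470 to 543 CPM (5 of 8 higher in KO XEN than in WT XEN), endothelial markers to 109 to 166, 192 to 249 and 47.9 to 100.4 CPM (1 of 9 higher, 4 lower), and naive pluripotency markers to 4380 to 4448, 424 to 436 and 63.3 to 75.8 CPM (0 of 10 higher, 7 lower). Different genes made the neural sums of KO ESC and KO XEN. Stmn2 made most of it in KO ESC (399 to 439 CPM, against 11.2 and 11.4 CPM in KO XEN C4 and 5-3). Nes made most of it in KO XEN C4 and 5-3 (425 and 331 CPM, against 8.21 to 30.3 CPM in KO ESC). The mitochondrial share of counts also differed, at 2.79% to 3.26% in KO ESC, 1.94% and 2.64% in WT XEN A and B, and 0.781% and 0.979% in KO XEN C4 and 5-3. Marker levels and mitochondrial share move with the member results below, and their part in them was not tested.

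After differentiation the chain pairs of collagen IV parted by genotype. In KO XEN against WT XEN, the major chains Col4a1 and Col4a2 fell 10.1-fold and 6.72-fold, the minor chains Col4a5 and Col4a6 rose 8.84-fold and 9.46-fold, Nid2 and Sparc fell 2.94-fold and 2.03-fold, and Hspg2 rose 1.57-fold. Col4a3, Col4a4 and Nid1 did not pass the test. Of the 10 members, 3 were higher (background 22.3% of 18426 tested genes), 4 were lower (background 23.9%) and 3 were not called. With 46.2% of all genes called in either direction, 7 of 10 says little about these genes as a set, and the sizes and directions by pair are described below. The members' median log2 fold change was -0.10, against 0 over all tested genes. Without both C4 libraries, 2 were higher and 3 lower.

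**Figure D1:**
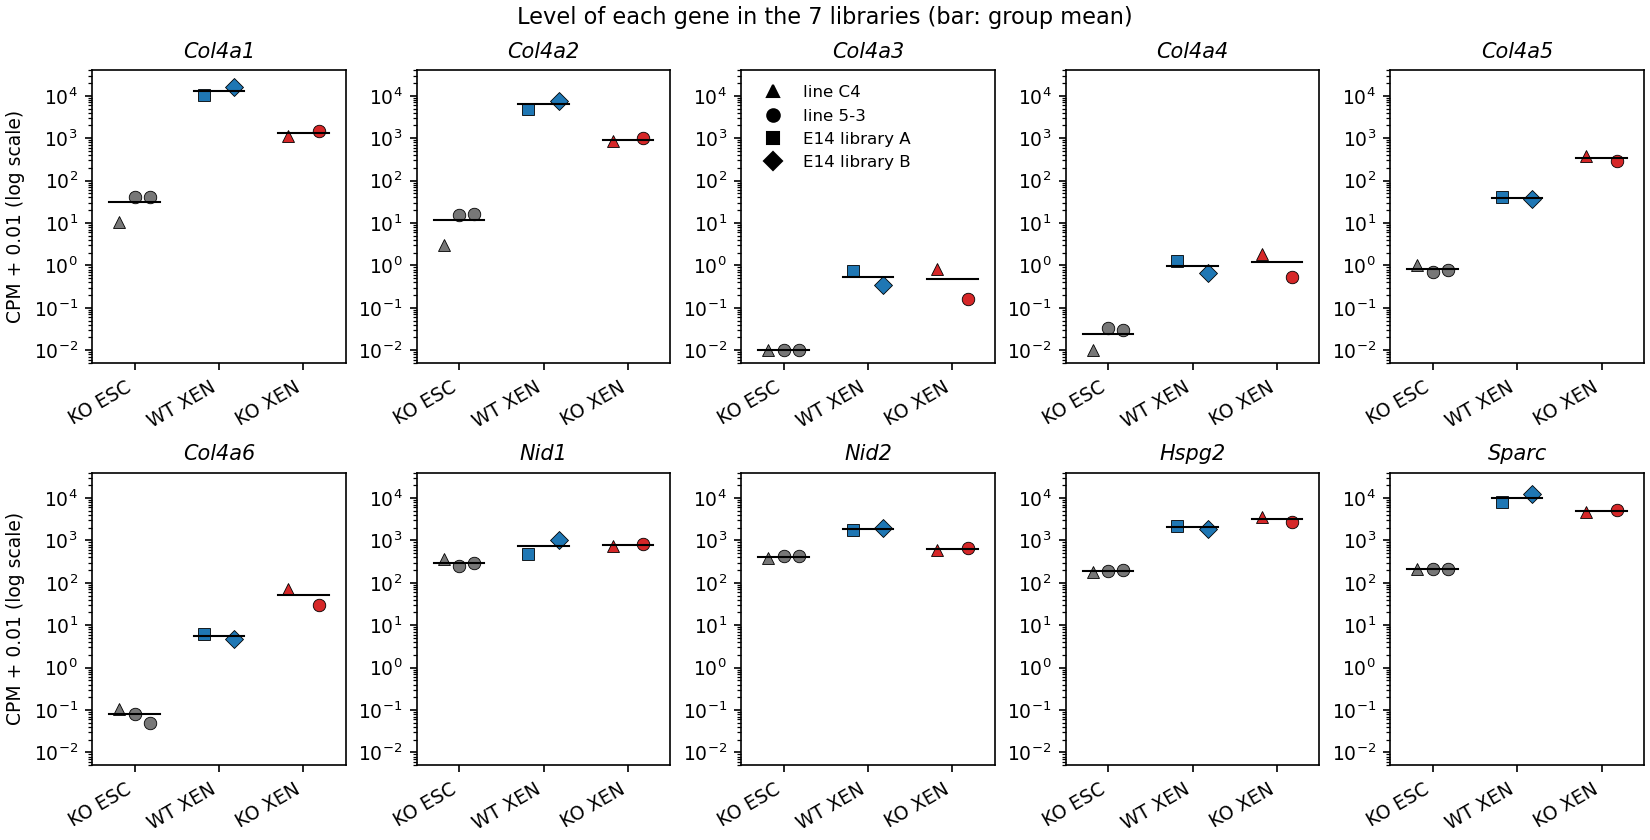
Level of each of the 10 genes in the 7 libraries, as CPM plus 0.01 on a log axis, with 1 point per library and the bar at the group mean (3 KO ESC, 2 WT XEN and 2 KO XEN libraries). Col4a1 and Col4a2 sit highest in WT XEN, Col4a5 and Col4a6 sit highest in KO XEN, and Nid1 overlaps between the XEN groups.

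Col4a1, the chain present in most collagen IV, was read at 10.7, 40.8 and 41.0 CPM in KO ESC C4, 5-3_1 and 5-3_2, at 10420 and 15895 CPM in WT XEN A and B, and at 1120 and 1493 CPM in KO XEN C4 and 5-3. The 3 groups did not overlap, and the ES library of line C4 lay below both ES libraries of line 5-3. The log2 fold change was -3.33 ± 0.61 (SE) in KO XEN against WT XEN (quasi-likelihood test of edgeR, p-values adjusted by Benjamini-Hochberg over all tested genes, adjusted p = 0.00325). Against KO ESC it was 5.40 ± 0.56 in KO XEN (adjusted p = 7.19e-05) and 8.74 ± 0.64 in WT XEN (adjusted p = 2.26e-05).

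Col4a2, the partner chain of Col4a1, was read at 3.05, 15.7 and 16.4 CPM in KO ESC C4, 5-3_1 and 5-3_2, at 4989 and 7494 CPM in WT XEN A and B, and at 849 and 1008 CPM in KO XEN C4 and 5-3. Its order of libraries was that of Col4a1 in each group. In KO XEN against WT XEN the log2 fold change was -2.75 ± 0.67 (edgeR, adjusted p = 0.0115), and the other comparisons gave 6.31 ± 0.66 in KO XEN against KO ESC and 9.06 ± 0.74 in WT XEN against KO ESC. The fall against WT XEN lost its call when WT XEN B (log2 fold change -2.43, adjusted p = 0.0539), KO XEN C4 (-2.63, adjusted p = 0.0723) or KO XEN 5-3 (-2.96, adjusted p = 0.0548) was left out. An antisense gene over Col4a2, Gm15419, held 69 counts in all 7 libraries, and whether the counting used strand is not given in the sources used here.

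Col4a3 and Col4a4, the chains best known from the glomerulus, were near the limit of detection. Col4a3 had 0 counts in each KO ESC library, 26 and 12 counts in WT XEN A and B (0.712 and 0.332 CPM), and 11 and 5 counts in KO XEN C4 and 5-3 (0.799 and 0.154 CPM). A count of 0 allows up to 3 counts, which is 0.0600 to 0.0720 CPM per ES library. Taking that floor of 3 counts over the ES group (0.0225 CPM) and the XEN counts as read, Col4a3 was at least 23.2-fold higher in WT XEN (at least 14.7-fold without library A) and at least 15.4-fold higher in KO XEN (at least 6.83-fold without C4 and at least 35.5-fold without 5-3). Counting error in the few XEN reads is not covered, so these are not strict lower bounds. C430014B12Rik, whose exons overlap those of Col4a3 on the other strand, held 20 counts in all 7 libraries.

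Col4a4 had 0, 1 and 1 counts in KO ESC C4, 5-3_1 and 5-3_2, 45 and 23 counts in WT XEN A and B (1.23 and 0.636 CPM), and 26 and 17 counts in KO XEN C4 and 5-3 (1.89 and 0.523 CPM). From counts and library sizes summed over each group, the ratio to KO ESC was 62.4 in WT XEN (95% counting interval 16.6 to 525) and 61.9 in KO XEN (16.1 to 528), intervals that cover counting error only. The KO XEN ratio was 34.9 (8.27 to 311) without KO XEN C4, 24.0 (5.69 to 214) without both C4 libraries and 126 (31.5 to 1093) without KO XEN 5-3. The XEN groups overlapped for both genes. In KO XEN against WT XEN the log2 fold change was -0.28 ± 0.92 for Col4a3 (edgeR, adjusted p = 0.833) and 0.30 ± 0.73 for Col4a4 (adjusted p = 0.766), so that at this depth no difference was detectable. With 1 library left out they ran from -1.74 (without KO XEN C4) to 0.52 (without KO XEN 5-3) for Col4a3 and from -0.83 to 0.93 (without the same libraries) for Col4a4, none called.

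Col4a5, the X-linked chain that joins either minor trimer, was read at 0.984, 0.672 and 0.761 CPM in KO ESC C4, 5-3_1 and 5-3_2, at 41.2 and 36.2 CPM in WT XEN A and B, and at 388 and 297 CPM in KO XEN C4 and 5-3. Each KO XEN library stood above each WT XEN library, and those above each ES library. The log2 fold change was 3.14 ± 0.21 in KO XEN against WT XEN (edgeR, adjusted p = 0.000141), with 2.94 to 3.24 over 16 other settings, all called. It was 8.73 ± 0.24 in KO XEN against KO ESC (adjusted p = 8.84e-07) and 5.58 ± 0.22 in WT XEN against KO ESC (adjusted p = 2.61e-06).

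Col4a6, which pairs with Col4a5 on the X chromosome, was read at 0.0960, 0.0720 and 0.0400 CPM in KO ESC C4, 5-3_1 and 5-3_2 (4, 3 and 2 counts), at 6.22 and 4.67 CPM in WT XEN A and B, and at 72.8 and 30.6 CPM in KO XEN C4 and 5-3. The order of groups was that of Col4a5, and KO XEN C4 stood 2.38-fold above KO XEN 5-3. Col4a6 gave a log2 fold change of 3.24 ± 0.43 in KO XEN against WT XEN (edgeR, adjusted p = 0.000848) and 2.49 without both C4 libraries (adjusted p = 0.00444). Against KO ESC it was 9.50 ± 0.53 in KO XEN and 6.26 ± 0.52 in WT XEN, on 9 counts in all 3 ES libraries. Without KO XEN C4 the former was 8.75.

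Nid1, the nidogen of most basement membranes, was read at 366, 248 and 290.2 CPM in KO ESC C4, 5-3_1 and 5-3_2, at 475 and 997 CPM in WT XEN A and B, and at 744 and 824 CPM in KO XEN C4 and 5-3. Both KO XEN libraries lay between the 2 WT XEN libraries, of which B was 2.10-fold above A. The log2 fold change in KO XEN against WT XEN was 0.09 ± 0.33 (edgeR, adjusted p = 0.848), and it ran from -0.42 without WT XEN A to 0.71 without WT XEN B, not called in either. Against KO ESC it rose by 1.38 ± 0.30 in KO XEN (adjusted p = 0.00370) and by 1.29 ± 0.30 in WT XEN (adjusted p = 0.00608). The WT XEN value was 1.76 without library A and 0.66 without library B (adjusted p = 0.0448).

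Nid2, the second nidogen gene, was read at 393, 435 and 422 CPM in KO ESC C4, 5-3_1 and 5-3_2, at 1725 and 1966 CPM in WT XEN A and B, and at 582 and 672 CPM in KO XEN C4 and 5-3. The KO XEN libraries stood nearer to the ES libraries than to the WT XEN libraries. The log2 fold change was -1.56 ± 0.16 in KO XEN against WT XEN (edgeR, adjusted p = 0.000325) and 2.15 ± 0.14 in WT XEN against KO ESC. In KO XEN against KO ESC it was 0.59 ± 0.14 (adjusted p = 0.00600), which was not called without KO XEN 5-3 (0.40, adjusted p = 0.0969). Exons of Nid2 overlap those of Rtraf on the other strand, which held 24075 counts, so Nid2 is uncertain to the extent that reads of the overlap were split.

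Hspg2, perlecan, was read at 177, 195 and 203 CPM in KO ESC C4, 5-3_1 and 5-3_2, at 2182 and 1863 CPM in WT XEN A and B, and at 3601 and 2766 CPM in KO XEN C4 and 5-3. It was the only member besides Col4a5 and Col4a6 that was called higher in KO XEN than in WT XEN, with no overlap between them. The log2 fold change was 0.65 ± 0.18 (edgeR, adjusted p = 0.0205). The call was lost in 6 of 16 other settings: with the 2 XEN groups alone (0.61, adjusted p = 0.0815), without both C4 libraries (0.45, adjusted p = 0.0808), and without KO ESC 5-3_1 (adjusted p = 0.0518), KO ESC 5-3_2 (0.0591), WT XEN B (0.100) or KO XEN C4 (0.114). Against KO ESC it was 4.06 ± 0.18 in KO XEN and 3.40 ± 0.17 in WT XEN, both called.

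Sparc was read at 207, 216 and 212 CPM in KO ESC C4, 5-3_1 and 5-3_2, at 7973 and 12357 CPM in WT XEN A and B, and at 4746 and 5256 CPM in KO XEN C4 and 5-3. Like Col4a1, Col4a2 and Nid2 it was highest in WT XEN, and the KO XEN libraries lay well above the ES libraries. Sparc gave a log2 fold change of -1.02 ± 0.22 in KO XEN against WT XEN (edgeR, adjusted p = 0.00635), -0.68 without WT XEN B (adjusted p = 0.0181), and not called without both C4 libraries (-0.95, adjusted p = 0.0535). Against KO ESC it was 4.56 ± 0.21 in KO XEN and 5.59 ± 0.22 in WT XEN.

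**Figure D2:**
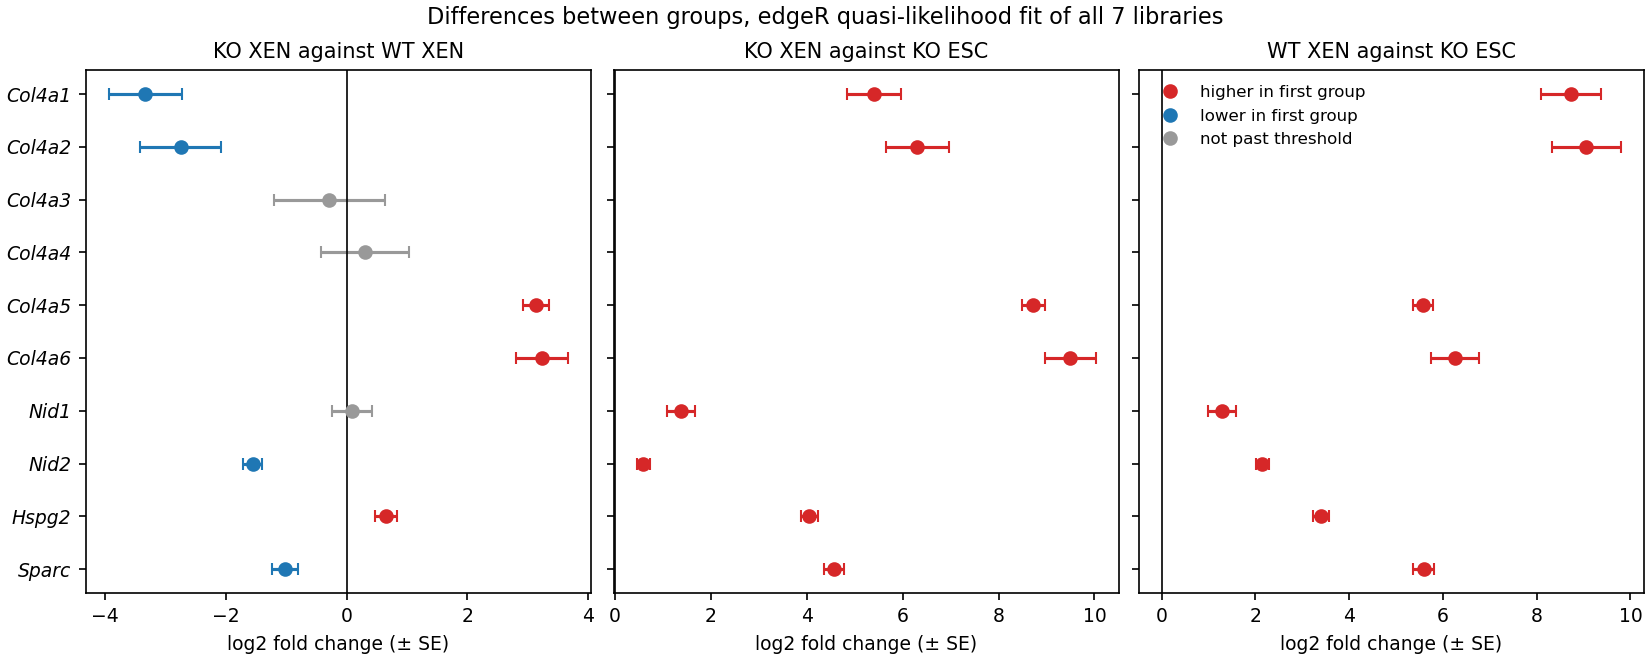
Difference of each gene (log2 fold change ± SE) in the 3 comparisons, from 1 edgeR fit of the 7 libraries; colours give the call at an adjusted p under 0.05. Col4a3 and Col4a4 are drawn only between the XEN groups, since they had 0 to 1 counts per ES library. The collagen IV pairs Col4a1 with Col4a2 and Col4a5 with Col4a6 lie on opposite sides of 0 in the first panel. The drawn genes lie above 0 in the other panels, where Col4a6 had to differ because it reached the level needed for testing only in XEN libraries.

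Against the ES libraries, the members that could be tested on their ES level were higher in both XEN groups. Col4a3, Col4a4 and Col4a6 reached the level needed for testing only in XEN libraries, so these 3 had to differ and are left out of the counts that follow. Of the other 7 members, 7 were higher in KO XEN than in KO ESC (background 34.8% higher and 34.3% lower, 69% in all), with a median log2 fold change of 4.56 and a range of 0.59 to 8.73. In WT XEN against KO ESC, 7 of the 7 were higher (background 32.2% higher and 30.3% lower, 62.5% in all), with a median of 5.58 and a range of 1.29 to 9.06. The medians over all tested genes were -0.08 and -0.03. Both comparisons use the same 3 ES libraries. Upper-quartile scaling moved the medians over all genes to -0.19 and -0.20, and changed no member's call.

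The composition of collagen IV was compared per length, as CPM per kilobase of merged exons, which allows levels of different genes to be set side by side. The 6 chains summed to 2.05, 7.94 and 8.09 CPM per kilobase in KO ESC C4, 5-3_1 and 5-3_2, to 2157 and 3268 in WT XEN A and B, and to 345 and 400.4 in KO XEN C4 and 5-3. Col4a5 and Col4a6 made 7.73%, 1.37% and 1.46% of that sum in KO ESC, but 0.321% and 0.183% in WT XEN, and then 19.4% and 12.0% in KO XEN. Their share was thus higher in each KO XEN library than in any other library (15.7% ± 5.2, SD, n = 2, against 0.252% ± 0.097, n = 2, in WT XEN), while Col4a1 and Col4a2 made 80.6% and 88.0% in KO XEN and 99.7% and 99.8% in WT XEN. Col4a3 and Col4a4 made at most 0.0747% in any library. With 2 libraries against 2, an exact permutation test could not reach the 0.05 threshold, so these shares and the ratios below are descriptions.

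**Figure D3:**
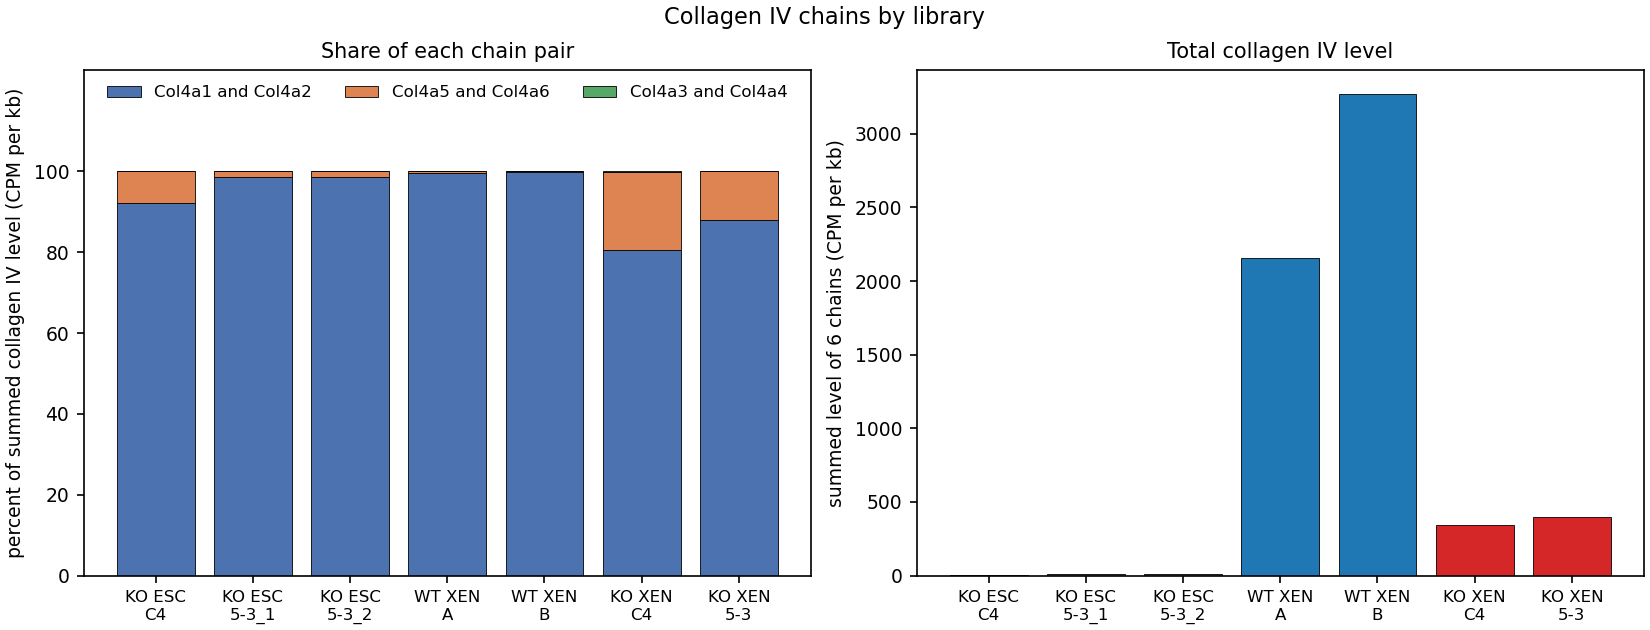
Left, the share of each chain pair in the summed collagen IV level (CPM per kilobase of merged exons) of each library; right, that summed level on a linear axis that starts at 0. The Col4a5 and Col4a6 share is 19.4% and 12.0% in the KO XEN libraries and under 0.4% in the WT XEN libraries, whose sums are the highest.

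Within the head-to-head pairs the balance differed as well. Col4a2 stood at 0.322, 0.435 and 0.450 of the Col4a1 level per length in KO ESC C4, 5-3_1 and 5-3_2, at 0.540 and 0.532 in WT XEN A and B, and at 0.855 and 0.761 in KO XEN C4 and 5-3, with no overlap between the groups. The group means were 0.402 ± 0.070 (SD, n = 3), 0.536 ± 0.006 (n = 2) and 0.808 ± 0.067 (n = 2), and all 3 were lower with the longest transcript as the length (0.366, 0.487 and 0.735), in the same order. Col4a6 stood at 0.0822, 0.0903 and 0.0443 of Col4a5 in KO ESC, at 0.127 and 0.109 in WT XEN and at 0.158 and 0.0868 in KO XEN, so that these groups overlapped. Col4a4 stood at 1.63 and 1.80 of Col4a3 in WT XEN and at 2.22 and 3.19 in KO XEN, on the few counts given above. Nid2 stood at 1.44, 2.35 and 1.95 of Nid1 in KO ESC, at 4.87 and 2.65 in WT XEN and at 1.05 and 1.09 in KO XEN, and again no groups overlapped.

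**Figure D4:**
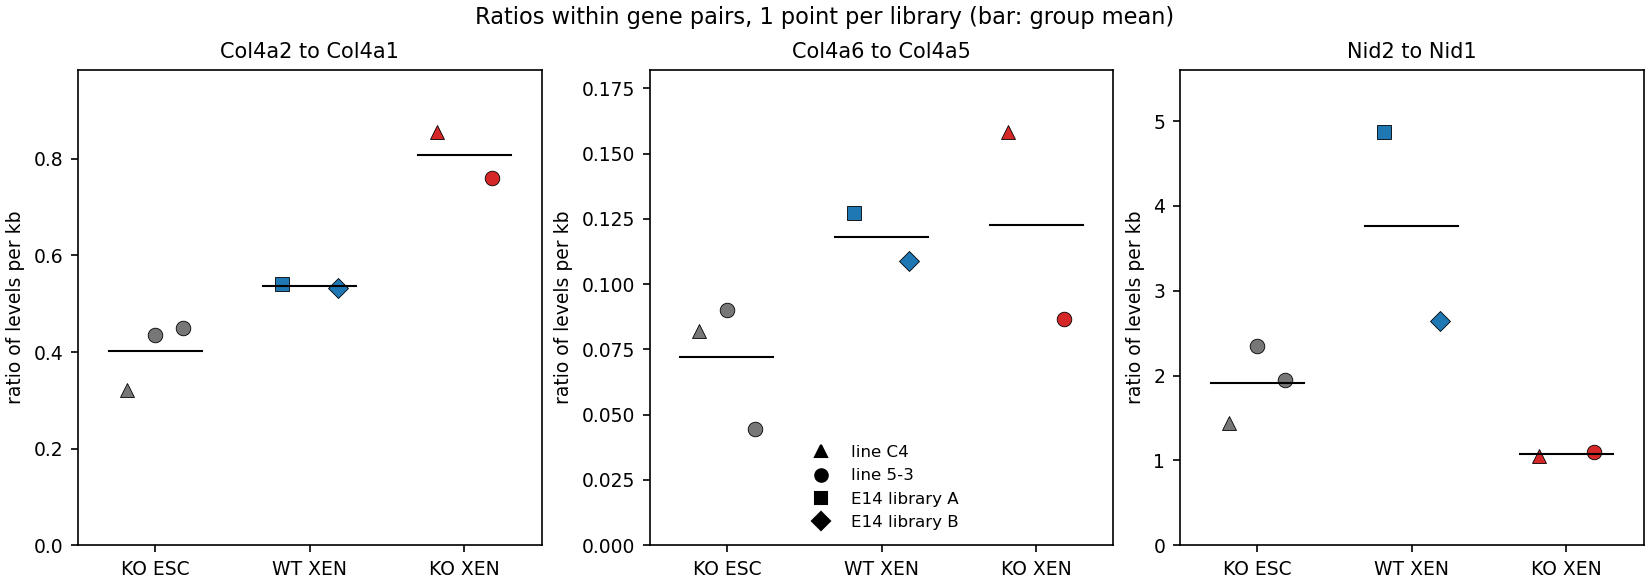
Ratio of the levels per kilobase within 3 gene pairs, 1 point per library with the bar at the group mean; all axes start at 0. The Col4a2 to Col4a1 ratio is highest in KO XEN (0.855 and 0.761) and the Nid2 to Nid1 ratio is lowest there (1.05 and 1.09), while the Col4a6 to Col4a5 ratio overlaps between groups.

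The order of the members by level per length also changed. In KO ESC it ran Nid2 (80.5 CPM per kilobase), Sparc (55.9), Nid1 (43.4), Hspg2 (13.4), Col4a1 (4.13), Col4a2 (1.77), Col4a5 (0.120), Col4a6 (0.00870), Col4a4 and Col4a3, and among the first 8 only the neighbours Col4a1 and Col4a2 overlapped between libraries. In WT XEN it ran Sparc (2684), Col4a1 (1763), Col4a2 (943), Nid2 (357), Hspg2 (141), Nid1 (106), Col4a5 (5.76), Col4a6 (0.683), Col4a4 and Col4a3, where Sparc overlapped with Col4a1 and Hspg2 with Nid1. In KO XEN it ran Sparc (1320), Hspg2 (223), Col4a1 (175), Col4a2 (140), Nid2 (121), Nid1 (113), Col4a5 (51.0), Col4a6 (6.48), Col4a4 and Col4a3, and each gene from Hspg2 to Nid2 overlapped with the next in the order. Sparc was first in both XEN groups, and Hspg2, after Nid2 in WT XEN, came next to Sparc in KO XEN. Col4a4 and Col4a3 were last in each group and overlapped in each. The order of Nid2 and Sparc in KO ESC depended on the length used. With the longest transcript as the length, Sparc came first in KO ESC as well. It then stood at 89.8, 93.8 and 92.4 CPM per kilobase in KO ESC C4, 5-3_1 and 5-3_2, against 80.6, 89.2 and 86.5 for Nid2.

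Among the 7 members that reached the testing level in ES cells, the undifferentiated knockout lines stood farthest apart at Col4a1 and Col4a2. The mean of the 5-3 libraries was 3.83-fold above C4 for Col4a1 and 5.26-fold above C4 for Col4a2, whereas after differentiation KO XEN 5-3 was 1.33-fold and 1.19-fold above KO XEN C4. After differentiation the wider gaps were at the low-count chains, where KO XEN C4 was 5.19-fold above KO XEN 5-3 for Col4a3 (11 and 5 counts), 3.61-fold for Col4a4 (26 and 17 counts) and 2.38-fold for Col4a6. The rise from ES to XEN was larger in C4 by 1.52 ± 0.44 (log2) for Col4a1 and by 2.15 ± 0.44 for Col4a2, but in a fit with 2 residual degrees of freedom neither passed the test (edgeR interaction contrast, adjusted p = 0.433 and 0.344). The estimate was larger for Col4a4 (4.71 ± 2.16, adjusted p = 0.529), on 0 to 1 counts per ES library. No gene of 18426 passed it (background 0%), 1844 had an unadjusted p under 0.05, and 1871 had one with RLE scaling, also with 0 called. Beside this, 10 of 11 parietal endoderm markers were lower in KO ESC C4 than in both 5-3 ES libraries and 1 (Lama1) was higher. Of 11 visceral endoderm markers, 7 were lower and 0 higher. Naive pluripotency markers were lower for 5 of 10 and higher for 3, and fibroblast and smooth muscle markers for 4 of 12 and 4. Endothelial markers were lower for 4 of 9 and higher for 3, and neural markers for 3 of 8 and 3. The share of all genes that lay below or above both 5-3 libraries was not counted, so these counts have no background. The part of these markers in the Col4a1 and Col4a2 difference was not tested.

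Genes that make, bind or cut collagen IV were read from 4 lists. For the counts below, the background over all tested genes was 22.3% higher and 23.9% lower in KO XEN against WT XEN. It was 34.8% and 34.3% in KO XEN against KO ESC, and 32.2% and 30.3% in WT XEN against KO ESC. Of 23 tested genes for collagen folding, secretion and crosslinking, 2 were higher, 12 lower and 9 not called in KO XEN against WT XEN (median log2 fold change -0.62, against 0 over all genes). P4ha2, a prolyl hydroxylase subunit, fell from 461.5 and 645 CPM in WT XEN A and B to 65.2 and 90.9 CPM in KO XEN C4 and 5-3 (log2 fold change -2.82 ± 0.23, edgeR, adjusted p = 0.000196). Mia2 and Mia3, which help to load bulky cargo such as collagen into transport carriers at endoplasmic reticulum exit sites, fell by 2.18 ± 0.20 and by 1.69 ± 0.19 (adjusted p = 0.000231 and 0.000459). The 2 that rose, named after their values were seen, were P4ha3 and P3h3. Against KO ESC, 19 of the 23 were higher and 2 lower in KO XEN, and 22 were higher and 0 lower in WT XEN.

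Of 27 tested genes for other basement membrane components, 10 were higher, 6 lower and 11 not called in KO XEN against WT XEN (median log2 fold change 0.56). Lamb1, a laminin beta chain, was read at 5672 and 9695 CPM in WT XEN A and B and at 947 and 1004 CPM in KO XEN C4 and 5-3 (-2.98 ± 0.26, edgeR, adjusted p = 0.000213), a fall with Col4a1 and Col4a2. Fras1, a protein that anchors epithelium to its basement membrane, rose by 3.15 ± 0.26 to 305 and 493 CPM in KO XEN C4 and 5-3, and Smoc2, a calcium-binding matrix protein related to SPARC, rose by 3.72 ± 0.32 to 221 and 328 CPM (adjusted p = 0.000197 and 0.000211). Against KO ESC, 21 of the 27 were higher and 3 lower in KO XEN, and 19 were higher and 2 lower in WT XEN. Smoc2 and Lamc3, included here, reached the level needed for testing only in XEN libraries.

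Of 20 cell surface receptors for collagen IV, laminin, nidogen or perlecan, 12 were higher in KO XEN than in WT XEN, 7 were not called, and 1, the syndecan Sdc4 (named after its value was seen), was lower (median log2 fold change 0.98). Ddr1, a receptor tyrosine kinase activated by collagen, was read at 67.5 and 43.0 CPM in WT XEN A and B and at 495 and 557.5 CPM in KO XEN C4 and 5-3 (3.25 ± 0.25, edgeR, adjusted p = 0.000165). The syndecans Sdc3 and Sdc2, heparan sulfate proteoglycans of the cell surface, rose by 3.58 ± 0.25 and 3.51 ± 0.34 (adjusted p = 0.000151 and 0.000282). Against KO ESC, 14 of the 20 were higher and 1 lower in KO XEN, and 12 were higher and 2 lower in WT XEN. Itga2 and Itga11, included here, reached the level needed for testing only in XEN libraries (at most 0.0480 and 0.0801 CPM in an ES library).

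Of 9 tested genes for proteases that cut collagen IV, their inhibitors and SPARC partners, 4 were higher, 0 lower and 5 not called in KO XEN against WT XEN (median log2 fold change 1.95). The 4, named after their values were seen, were the gelatinase Mmp2, the membrane protease Mmp14 that activates it, and the inhibitors Timp1 and Timp2. Mmp2 stood at a mean of 1492 CPM in KO XEN against 106 CPM in WT XEN. Against KO ESC, 8 of the 9 were higher in KO XEN and 7 in WT XEN, with 0 lower in either. Sparcl1, included here, reached the level needed for testing only in XEN libraries (at most 0.144 CPM in an ES library).

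Among 9792 genes that averaged at least 10 CPM, those whose pattern over the 7 libraries was most like that of Col4a1, by Pearson's r of log2(CPM + 1), were Erp29 (0.999), Greb1l (0.998), Dpagt1 (0.998), Pard6b (0.997) and Dab2 (0.996). Erp29 is a resident of the endoplasmic reticulum, and Dab2 is an endocytic adaptor. Erp29 stood at 58.8, 79.1 and 77.2 CPM in KO ESC C4, 5-3_1 and 5-3_2, at 366 and 437 CPM in WT XEN A and B, and at 190 and 212 CPM in KO XEN C4 and 5-3. Those most like Sparc were Nagk, Smarca2, Cdh6, Entpd7 and Dnajc1, with r from 0.998 to 0.999. The libraries fall into 3 groups, so these correlations mostly restate the group levels and are given as a description.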

How the data were processed

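Poly(A) RNA of the 7 libraries was sequenced on an Illumina instrument by a reverse-stranded TruSeq protocol, per the labels' protocols. The authors deposited raw read counts per Ensembl gene. STAR 2.4.2a, featureCounts 1.4.5-p1 and mm10 are named in the submitters' processing notes, and the annotation release, the strand setting and the treatment of multimapped reads are not given in the sources used here. Symbols, positions and lengths came from GENCODE M21: 42548 of 43629 identifiers matched, and the 1081 without a symbol held 0.136% of counts. From the counts, edgeR 4.0.16 (R 4.3.3) was fitted over all 7 libraries as 3 groups: TMM scaling, filterByExpr (minimum count 10, 18426 genes kept and 25203 set aside), quasi-likelihood F test with 4 residual degrees of freedom, Benjamini-Hochberg adjustment over all tested genes and a threshold of 0.05. All 10 members were kept. The standard error is the size of the log2 fold change divided by the square root of F, and the common biological coefficient of variation was 0.268. CPM uses TMM-scaled library sizes. The code was tested on simulated data. DESeq2 1.42.0 served as an alternative, with limma 3.58.1 loaded by edgeR. Sequences came from RefSeq (GRCm38.p6) and 3′ UTRs from GENCODE M21, using the APPRIS principal and then longest transcript.

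Lines C4 and 5-3 pair the KO ESC and KO XEN libraries by their labels, although their deviations from the group means hardly correlated (r = 0.0566), and the fit with line as a block was an alternative. The 2 ES libraries of line 5-3 differed beyond sampling noise (chi-square per degree of freedom 21.1) and were kept as 2. The members and lists were chosen with earlier results of these data known. The text names all 10 members, Ago2, the 3 genes with the smallest adjusted p in KO XEN against WT XEN from each of the folding, membrane component and receptor lists, and the 5 genes most like Col4a1 and Sparc. Genes that overlap a member are named from the annotation. Named outside this rule, after their values were seen, were P4ha3, P3h3, Sdc4, Mmp2, Mmp14, Timp1, Timp2, Vim, Lama1, Lum, Col3a1 and Postn. The same holds for Lrp2, Cubn, Afp, Ttr, Apoa1, Stmn2, Nes, Lamc3, Itga2, Itga11 and Sparcl1. Alternatives were other scaling, other filters, DESeq2, the block, the compared groups alone, both C4 libraries left out, the 5-3 ES libraries summed, each library left out in turn, and other gene lengths.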

Additional observations from a re-analysis of the deposited data

How the results depend on the processing

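The counts of genes called and of members called stayed within 1.5 times the reported value in all 146 recomputed counts. The 3 members called higher in KO XEN against WT XEN became 2 at the lowest and the 4 called lower became 3, and the 10 called higher against KO ESC, which include the 3 tested only through their XEN level, became 9 at the lowest in either comparison. Where genes needed 1 CPM in 2 libraries, Col4a3 was not tested. Of the members' single values, 11 kept their direction but lost their call, all named beside the result (Col4a2, Hspg2 and Sparc in KO XEN against WT XEN, Nid2 in KO XEN against KO ESC), and the cause was not tested. When a library was left out of an XEN group, the one that remained was assumed to vary like the other groups. No called value reversed. The sign of Nid1, Col4a3 and Col4a4 in KO XEN against WT XEN, not called in any setting, varied. With the knockout line as a replicate block, no member's call changed: Col4a1 was -3.29 (adjusted p = 0.000965), Col4a5 3.13 and Hspg2 0.65 (adjusted p = 0.0268), with 8863 genes called. With the longest transcript as the length, 5 ratios moved by more than their spread, and the order of groups for Col4a2 to Col4a1 and Nid2 to Nid1 was kept. The order of Nid2 and Sparc in KO ESC changed with that length. Depth limits Col4a3, Col4a4 and, in KO ESC, Col4a6, with 0 to 45 counts per library for the first 2.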
